A study of Mus musculus with 6 samples.

Results

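Autophagy carries cytoplasm, damaged organelles and aggregated proteins to the lysosome inside a double membrane, the autophagosome. A kinase complex and a lipid kinase complex start the membrane, further proteins feed it with lipid, and conjugation enzymes attach small ubiquitin-like proteins of the Atg8 family (LC3 and GABARAP) to it. Cargo receptors then bind these proteins on one side and ubiquitin-tagged cargo on the other. In liver the pathway supplies amino acids during fasting and also delivers lipid droplets, mitochondria and glycogen for breakdown. Described here are 36 mouse genes of this machinery out of 22488 gene lines in the deposited count tables. They were chosen by name, with earlier results of these data known. All 36 had a line of their own and all 36 passed the filter on low counts.

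RNA came from whole livers of male wild-type C57BL/6 mice, 6 to 8 weeks old, all fasted for 16 h. The LPS group (n = 3) was given lipopolysaccharide, a cell wall component of Gram-negative bacteria that triggers innate immunity, at 6 mg/kg into the abdominal cavity. The control group (n = 3) was given 200 µl of the salt solution HBSS by that route in one label field, while another field records these samples as untreated. How long after injection the livers were taken is not stated in the labels. The series asks how LPS changes lipid handling in the liver, and the comparison below asks what happened to the RNA of the autophagy genes in the same livers. Fasting was common to both groups, so neither group is a fed liver.

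The libraries held 11488525 to 15437785 counts in LPS livers and 12577993 to 20282004 in control livers. Levels are given as CPM, counts scaled to a common library size, and changes as log2 fold changes of LPS over control livers, each with a standard error (SE). A gene is said to have risen or fallen where its edgeR p value, adjusted over all 12078 genes tested, was under 0.05. Hepatocyte markers summed to 71321, 82171 and 97428 CPM in LPS replicates 1, 2 and 3 and 110897, 124111 and 112452 CPM in control replicates 1, 2 and 3, and 6 of the 9 fell singly while 1 rose. Neutrophil markers summed to 202 to 247 CPM in LPS livers and 4.37 to 7.83 CPM in control livers (8 of 8 tested rose), and Kupffer cell markers to 71.9 to 117 CPM in LPS livers and 270 to 307 CPM in control livers (6 of 7 tested fell, 1 rose). Biliary markers summed to 117 to 138 CPM in LPS livers and 19.4 to 32.3 CPM in control livers (3 of 4 tested rose, 1 fell). Most of that sum was Spp1, with means of 95.5 CPM in LPS livers and 17.5 CPM in control livers. The one that fell was the keratin Krt19 (0.292 CPM in LPS livers, 1.95 CPM in control livers). Krt7 was at or near 0 in both groups. Monocyte and macrophage markers summed to 34.5 to 38.3 CPM in LPS livers and 88.2 to 98.0 CPM in control livers (3 of 7 rose, 3 fell). T and NK cell markers summed to 6.91 to 7.5 CPM in LPS livers and 2.24 to 4.68 CPM in control livers (1 of 4 tested rose, 0 fell). B cell markers summed to 1.43 to 2.67 CPM in LPS livers and 4.44 to 5.59 CPM in control livers (0 of 4 rose, 2 fell). The sums for endothelial, stellate and erythroid cells overlapped between the groups, although single markers changed in both directions. Of 7 endothelial markers 1 rose and 4 fell, and of 7 stellate markers 1 rose and 3 fell. Among 5 erythroid markers 2 rose and 1 fell. In whole tissue, fewer cells of a type and less RNA per cell cannot be told apart, and the part of these shifts in the results below was not tested. LPS replicate 3 held the highest of the 3 LPS values in 27 of the 36 autophagy genes (75%), against 39.9% of all genes tested. Its scaling factor was 0.9092, beside 1.003 to 1.037 in the other libraries, and a lower factor gives higher CPM for every gene. The part of this factor in the 27 genes was not tested.

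LPS livers differed from control livers in 22 of the 36 genes. The number that rose was 6 (16.7%), where 31.3% of all genes tested rose, and 16 fell (44.4%), where 31.0% of all genes tested fell. Without LPS replicate 2 the number that fell was 10 (27.8%), beside 28.5% of all genes in that fit, so the higher share was absent there. The gap to all genes was also smaller without control replicate 3 (33.3%, beside 28.7%). When changes were tested against 1.2-fold the shares were 30.6% and 27.2%. Why the gap differs between these settings was not tested. Counted in either direction, 61.1% of the autophagy genes changed, beside 62.3% of all genes tested. Changes of at least 2-fold were found in 9 genes (25.0%), of which 3 rose and 6 fell, beside 34.2% of all genes tested. The median log2 fold change was -0.19 over the 36 genes and 0.01 over all genes tested. The ranges of the groups were separate in 21 genes (58.3%), beside 67.4% of all genes tested. Summed over the 36 genes the level was 2399 to 2927 CPM in LPS livers and 2839 to 3018 CPM in control livers, and these ranges overlap. The share of changed genes was thus near that of the transcriptome. Within several families 1 gene rose while a related gene fell. How often related genes part in this way over all genes tested, of which 31.3% rose and 31.0% fell, was not tested.

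**Figure D1:**
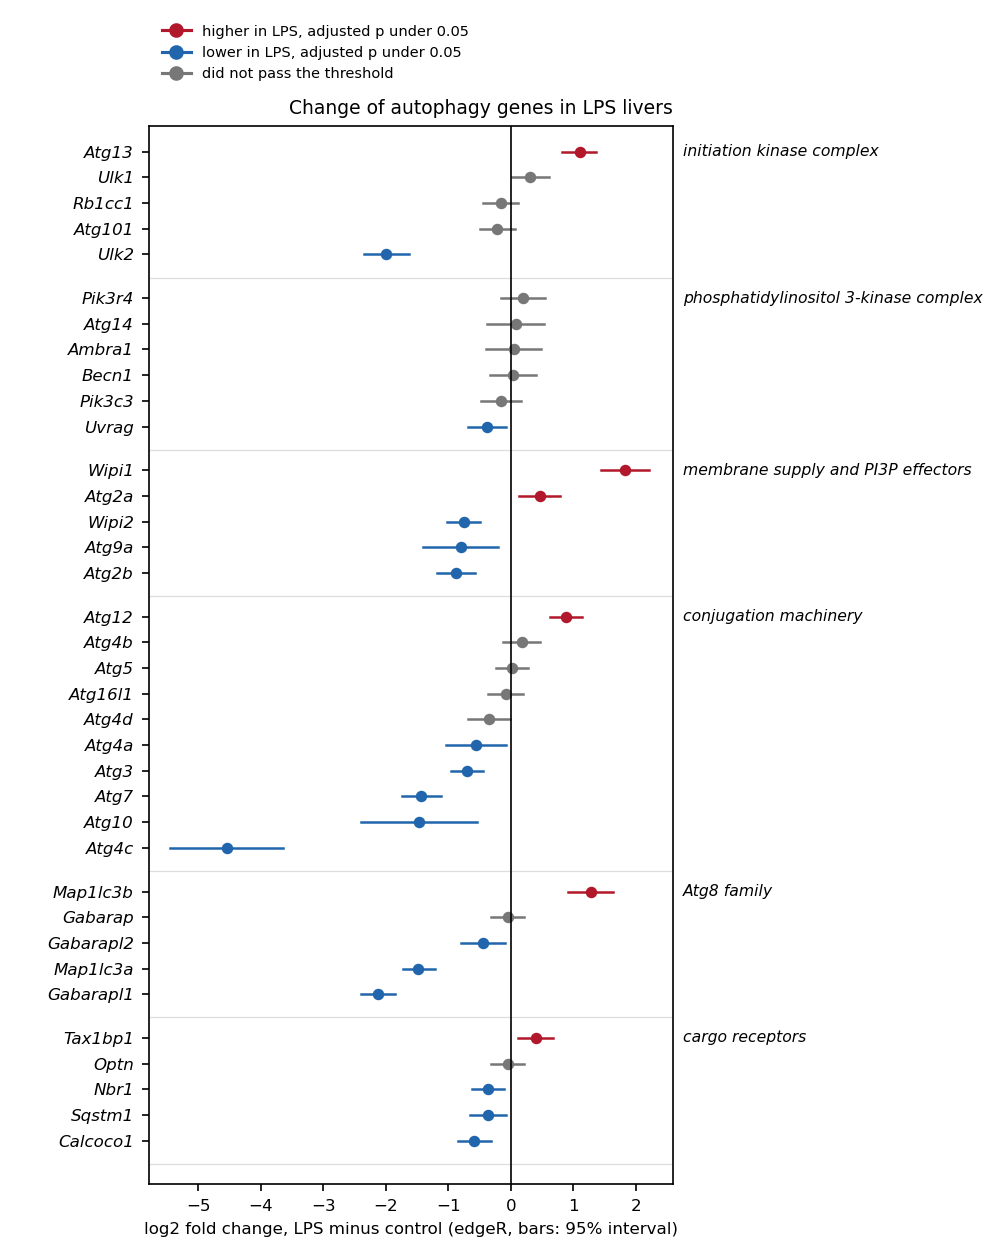
Log2 fold change of each of the 36 autophagy genes, LPS minus control, with unadjusted 95% intervals as bars, grouped by step of the pathway; colours mark genes that rose, fell or did not pass the threshold. Atg4c stands at the far left at -4.54, and the phosphatidylinositol 3-kinase complex stays nearest to 0.

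The proteins of the Atg8 family come from 5 genes, of which 1 rose and 3 fell (80.0% changed), beside 62.3% of all genes tested. These ubiquitin-like proteins are cut by ATG4 proteases, joined to phosphatidylethanolamine and set into the autophagosome membrane, where receptors dock. Map1lc3b, whose protein LC3B is the usual marker of autophagosomes (chromosome 8, 121590361 to 121598760), had 271, 275 and 427 CPM in LPS replicates 1, 2 and 3, against 133, 129 and 138 CPM in control replicates 1, 2 and 3. All 3 LPS values lay above all control values, with LPS replicate 3 far above the other LPS livers, and the gene rose (log2 fold change 1.28, SE 0.17, adjusted p = 1.594e-05). Gabarapl1 (chromosome 6, 129533160 to 129542346) had 82.1, 76.6 and 88.9 CPM in LPS replicates 1, 2 and 3, against 324, 376 and 379 CPM in control replicates 1, 2 and 3. It was 4.35 times lower in LPS livers, with a wide gap between the groups (-2.12, SE 0.13, adjusted p = 8.568e-09). Map1lc3a, the LC3A gene (chromosome 2, 155276297 to 155278073), had 38.5, 38.3 and 35.1 CPM in LPS livers, against 104, 109 and 98.4 CPM in control livers. It fell too (-1.48, SE 0.12, adjusted p = 1.443e-07), with the highest LPS value far under the lowest control value.

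The remaining GABARAP genes moved little. Gabarapl2, also known as GATE-16, had 22.6, 25.9 and 33.6 CPM in LPS livers and 31.0, 41.8 and 39.4 CPM in control livers. The ranges overlap, since LPS replicate 3 exceeded control replicate 1, and the fall of 0.45 on the log2 scale (SE 0.16, adjusted p = 0.0282) ended when any one of 4 libraries was left out, as listed in the closing section. Gabarap itself had 184 ± 17.5 CPM in LPS livers and 191 ± 10.9 CPM in control livers (SD, n = 3 each), a difference of -0.05 with a 95% interval of -0.31 to 0.21. Near-identical copies among annotated transcripts exist for Map1lc3b (4 copies) and Gabarapl2 (3 copies), and the sources used here do not say how reads matching several places were counted. Exons of 12 of the 36 genes (Gabarapl1, Map1lc3b, Sqstm1, Tax1bp1, Optn, Rb1cc1, Becn1, Atg14, Uvrag, Atg2b, Atg4d and Atg9a) overlap a gene on the opposite strand, and without strand information reads of the pair cannot be told apart.

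Promoter windows are shown for Gabarapl1, Map1lc3b, Wipi1, Ulk2 and Atg4c, which changed by more than 2-fold and set the make-up of their families apart between the groups. Each runs from 250 bases before to 50 bases after the RefSeq transcription start on GRCm38.p6, 5′ to 3′ on the gene's own strand. Capitals mark matches, on either strand, to the motifs searched: CACGTG (the E-box core of the CLEAR element read by TFEB and TFE3), GTAAACA (FOXO), TGACNNNGC (antioxidant response element core), TTCNNNGAA (STAT) and the kappa-B motif.
Gabarapl1 (chr6:129532942-129533241, plus strand): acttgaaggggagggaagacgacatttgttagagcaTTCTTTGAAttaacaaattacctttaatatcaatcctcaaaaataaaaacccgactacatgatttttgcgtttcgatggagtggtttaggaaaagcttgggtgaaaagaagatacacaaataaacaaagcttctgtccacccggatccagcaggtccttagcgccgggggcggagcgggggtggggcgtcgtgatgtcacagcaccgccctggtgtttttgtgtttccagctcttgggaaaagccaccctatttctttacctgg
Map1lc3b (chr8:121590188-121590487, plus strand): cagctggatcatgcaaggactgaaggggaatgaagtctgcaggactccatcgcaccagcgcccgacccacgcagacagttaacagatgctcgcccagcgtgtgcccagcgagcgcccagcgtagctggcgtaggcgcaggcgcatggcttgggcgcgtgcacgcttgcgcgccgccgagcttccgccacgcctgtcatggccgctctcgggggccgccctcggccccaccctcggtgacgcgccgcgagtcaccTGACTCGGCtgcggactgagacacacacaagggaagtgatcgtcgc
Wipi1 (chr11:109611340-109611639, minus strand): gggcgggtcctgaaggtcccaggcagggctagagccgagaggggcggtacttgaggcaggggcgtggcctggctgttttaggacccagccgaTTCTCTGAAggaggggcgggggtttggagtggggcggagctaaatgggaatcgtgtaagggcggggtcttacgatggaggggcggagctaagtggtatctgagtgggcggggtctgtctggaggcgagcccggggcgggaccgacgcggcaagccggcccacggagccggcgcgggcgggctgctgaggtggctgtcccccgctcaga
Ulk2 (chr11:61855043-61855342, minus strand): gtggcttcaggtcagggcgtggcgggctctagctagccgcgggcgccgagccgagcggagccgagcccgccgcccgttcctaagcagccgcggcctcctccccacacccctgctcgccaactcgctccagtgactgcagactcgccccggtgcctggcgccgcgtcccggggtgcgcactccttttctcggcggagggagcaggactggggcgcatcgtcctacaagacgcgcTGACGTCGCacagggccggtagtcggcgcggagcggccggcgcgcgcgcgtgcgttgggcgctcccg
Atg4c (chr4:99193684-99193983, plus strand): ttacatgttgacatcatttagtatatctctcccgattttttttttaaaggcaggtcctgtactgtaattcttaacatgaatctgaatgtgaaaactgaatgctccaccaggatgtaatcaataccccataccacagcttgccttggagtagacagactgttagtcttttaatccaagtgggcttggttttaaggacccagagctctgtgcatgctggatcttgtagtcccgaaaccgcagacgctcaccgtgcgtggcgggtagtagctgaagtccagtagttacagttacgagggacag
The matches in these 5 windows are a STAT match 214 bases before the start of Gabarapl1, another 158 bases before that of Wipi1, and antioxidant response element cores 17 bases before the start of Ulk2 and 4 bases after that of Map1lc3b. The window of Atg4c held none of these letters, and it was also poor in CG pairs, with 8, where the windows of Ulk2 and Map1lc3b held 45 and 34. RefSeq windows were found for 30 of the 36 genes, the others being Rb1cc1, Becn1, Pik3c3, Atg12, Atg16l1 and Map1lc3a. CACGTG occurred in 4 of the 30 (Atg3, Atg7, Atg5 and Atg14), or 13.3%, and in 7.24% of all 27025 gene windows. TTCNNNGAA occurred in 4 (13.3%, beside 8.47% of all), TGACNNNGC in 3 (10%, beside 12.5%), the kappa-B motif in 1, Sqstm1 (3.33%, beside 4.35%), and GTAAACA in 0, beside 3.55% of all. The E-box matches fell on 2 genes that fell and 2 that did not pass the threshold. The STAT matches fell on 1 gene that rose, 2 that fell and 1 that did not pass. A match describes the letters of the window and does not show binding.

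Measured per length, the make-up of the Atg8 family differed between the groups. Levels were divided by the length of the longest principal transcript in the GENCODE annotation, since longer transcripts give more counts at equal molarity. Gabarapl1 made up 12.6 ± 0.312% of the summed CPM per kb of the 5 genes in LPS livers and 38.9 ± 2.24% in control livers. Map1lc3b made up 35.2 ± 6.26% in LPS livers and 10.4 ± 0.674% in control livers, and Map1lc3a 9.41 ± 1.31% in LPS livers and 18.4 ± 0.909% in control livers (SD, n = 3 each). In LPS livers Gabarap (136 CPM per kb) and Map1lc3b (128 CPM per kb) had the highest mean levels per length, and in control livers Gabarapl1 did (197 CPM per kb). The share of Gabarap was 38.2 ± 5.36% in LPS livers and 27.9 ± 1.75% in control livers although its own level did not pass the threshold, because a share depends on the other members. The family summed to 351, 329 and 398 CPM per kb in LPS replicates 1, 2 and 3 and 486, 528 and 507 CPM per kb in control replicates 1, 2 and 3, without overlap. For each of these 4 shares the groups did not overlap, and the exact 2-sided permutation test gave p = 0.1, the smallest that 3 against 3 allows (adjusted p = 0.131 over 17 shares in all families). That test therefore cannot pass the threshold in this design.

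**Figure D2:**
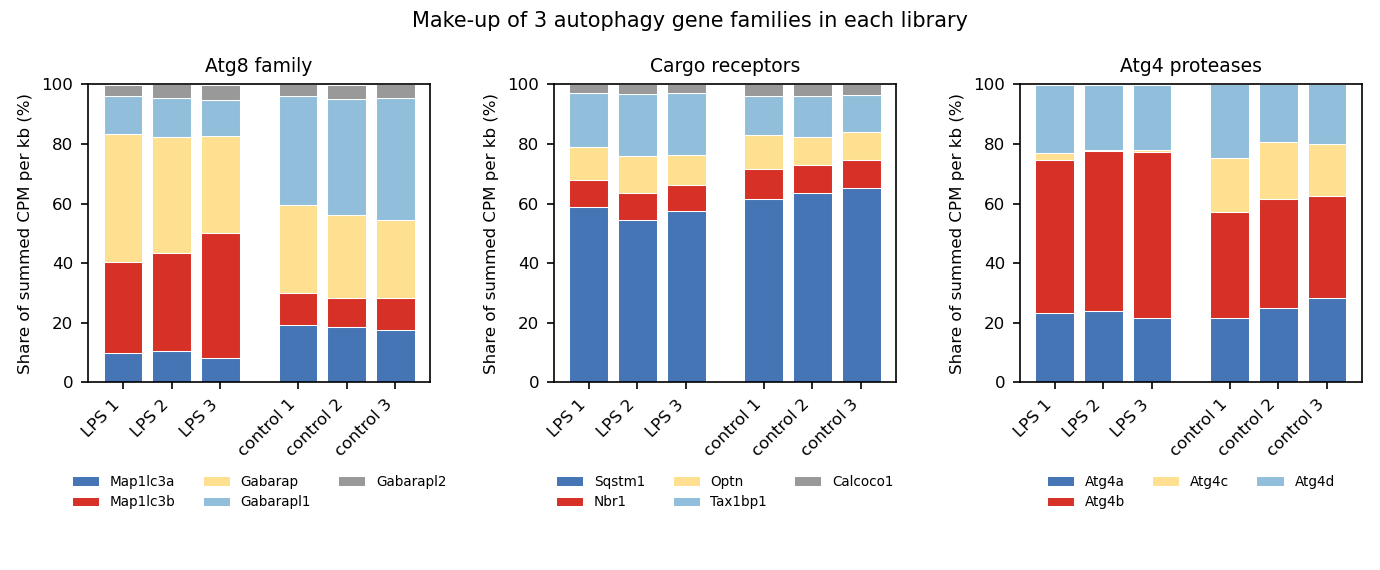
Share of each gene (percent, stacked) in the summed CPM per kb of the Atg8 family, the cargo receptors and the ATG4 proteases, 1 bar per library with LPS livers left of control livers. Gabarapl1 takes 12.3 to 12.8% of the Atg8 family in LPS livers and 36.6 to 41.1% in control livers, and Atg4c nearly vanishes from the protease bars of LPS livers.

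Among the ATG4 proteases, which trim Atg8 proteins before conjugation and release them afterwards, the change lay mainly in Atg4c (chromosome 4, 99193934 to 99259787). Atg4c had 0.853, 0.141 and 0.285 CPM in LPS replicates 1, 2 and 3, against 9.36, 9.83 and 9.75 CPM in control replicates 1, 2 and 3. These LPS values rest on 10, 2 and 4 counts, whereas the control libraries held 120, 202 and 152 counts. The gene was 22.6 times lower in LPS livers, the largest fold among the 36 (log2 fold change -4.54, SE 0.42, adjusted p = 5.868e-07). The log2 fold change was -5.47 without LPS replicate 1, which held 10 of the counts, and -4.11 without LPS replicate 2, so the direction held while the size of the fold depends on single libraries. Atg4b, the main protease for LC3B, had 24.4, 27.5 and 31.9 CPM in LPS livers and 24, 24.7 and 25.4 CPM in control livers, overlapping ranges with a difference of 0.18 (95% interval -0.12 to 0.47). Atg4d had 16.5 ± 1.39 CPM in LPS livers and 21.2 ± 2.65 CPM in control livers (-0.35, adjusted p = 0.0608). Atg4a had 6.28 ± 0.415 CPM in LPS livers and 9.2 ± 1.75 CPM in control livers (-0.55, SE 0.22, adjusted p = 0.0427), a call lost with DESeq2 (adjusted p = 0.0501) and without any one of 5 of the 6 libraries. A pseudogene 99.3% identical to Atg4a is annotated, and its part in the Atg4a count was not tested. Atg4c took 1.13 ± 1.08% of the protease sum per kb in LPS livers and 18.2 ± 0.954% in control livers, and Atg4b 53.6 ± 2.01% in LPS livers and 35.5 ± 1.2% in control livers.

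The conjugation enzymes work like a ubiquitin cascade, in which ATG7 activates, ATG3 and ATG10 transfer, and ATG12 joins ATG5 and ATG16L1 to direct lipidation. Atg7 had 15, 11.7 and 14.5 CPM in LPS livers, against 39.8, 35.4 and 36 CPM in control livers. It fell (-1.43, SE 0.14, adjusted p = 1.256e-06) with no overlap between the groups. Atg3 had 27, 27.3 and 29.7 CPM in LPS livers, against 45.1, 44.5 and 46.9 CPM in control livers, and fell by 0.70 on the log2 scale (SE 0.12, adjusted p = 1.588e-04). Atg10 had low counts, with 1.19, 2.18 and 0.713 CPM in LPS livers and 3.27, 3.11 and 5.07 CPM in control livers. Its fall (-1.47, SE 0.43, adjusted p = 0.00892) ended without control replicate 3 (-1.23, adjusted p = 0.0565). Atg12 went the other way, with 67.9, 69.2 and 77.7 CPM in LPS livers and 36.4, 40.7 and 39.2 CPM in control livers (0.88, SE 0.12, adjusted p = 2.320e-05). Its partners did not pass the threshold: Atg5 averaged 77.2 CPM in LPS livers and 76.2 CPM in control livers (0.02, 95% interval -0.24 to 0.27), and Atg16l1 48.5 CPM in LPS livers and 51.4 CPM in control livers (-0.08, 95% interval -0.37 to 0.20). Atg7, Atg3 and Atg10 thus fell, while of the genes for the ATG12-ATG5-ATG16L1 complex Atg12 rose and the others did not pass the threshold.

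In the initiation complex ULK kinases act with ATG13, RB1CC1 (FIP200) and ATG101 under control of mTOR and AMPK. Of its 5 genes 1 rose and 1 fell (40.0% changed), beside 62.3% of all genes tested. Ulk2 (chromosome 11, 61775649 to 61855073) had 13.6, 19.3 and 14.6 CPM in LPS livers, against 55.4, 57.7 and 76.3 CPM in control livers. It was 3.99 times lower in LPS livers without overlap (-1.99, SE 0.17, adjusted p = 2.324e-07). Ulk1 had 107, 97.9 and 132 CPM in LPS livers and 88.7, 84.0 and 98.7 CPM in control livers, with LPS replicate 2 just under control replicate 3 (0.31, SE 0.14, adjusted p = 0.0604). It passed the threshold without LPS replicate 2 (0.41, adjusted p = 0.0328) and with the replicate number as a block (0.30, adjusted p = 0.0448). Ulk1 took 88.4 ± 3.18% of the sum of both kinases per kb in LPS livers and 61.4 ± 2.52% in control livers (exact permutation p = 0.1). Atg13, the regulatory subunit, had 104, 105 and 118 CPM in LPS livers, against 56.0, 45 and 52.1 CPM in control livers, and rose 2.14-fold (1.10, SE 0.13, adjusted p = 5.275e-06). The scaffold Rb1cc1 averaged 50.7 CPM in LPS livers and 56.8 CPM in control livers (-0.16, 95% interval -0.44 to 0.12), and Atg101 30.9 CPM in LPS livers and 35.9 CPM in control livers (-0.22, 95% interval -0.49 to 0.06).

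The phosphatidylinositol 3-kinase complex makes the lipid PI3P on the forming membrane. It had the smallest median absolute log2 fold change of the 6 steps, at 0.12, beside 0.715 over all genes tested. Of its 6 genes 0 rose and 1 fell (16.7%), beside 62.3% of all genes tested that changed in either direction. All 6 log2 fold changes lay between -0.38 and 0.20. Becn1, the Beclin 1 scaffold, had 21.2, 25.0 and 33.3 CPM in LPS livers and 26.7, 22.0 and 29.3 CPM in control livers (0.03, 95% interval -0.34 to 0.40). The kinase Pik3c3 averaged 16.4 CPM in LPS livers and 18.3 CPM in control livers (-0.16, 95% interval -0.48 to 0.16), and its regulatory subunit Pik3r4 21.6 CPM in LPS livers and 18.8 CPM in control livers (0.20, 95% interval -0.15 to 0.55). Atg14, which steers the complex to autophagosomes, and Ambra1, which binds Beclin 1, differed by 0.08 (95% interval -0.38 to 0.53) and 0.05 (95% interval -0.39 to 0.48). Uvrag, the alternative partner of Beclin 1 in endosome traffic, had 19.0, 15.5 and 17.8 CPM in LPS livers, against 24.2, 21.9 and 22.1 CPM in control livers. Its fall was small (-0.38, SE 0.14, adjusted p = 0.0331) and did not pass with DESeq2 (adjusted p = 0.0514), or when control replicate 1 or either of LPS replicates 2 and 3 was left out.

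Proteins that read PI3P and carry lipid to the membrane were the step in which all 5 genes changed, beside 62.3% of all genes tested. For Atg2a and Atg9a the call was lost when single libraries were left out, as given below. Wipi1 (chromosome 11, 109573331 to 109611967), a PI3P-binding protein of the forming autophagosome, had 48.7, 45.1 and 67.1 CPM in LPS livers, against 17.2, 12.3 and 15.9 CPM in control livers. It showed the largest rise of the 36 genes at 3.54-fold (1.83, SE 0.18, adjusted p = 8.401e-07). Its relative Wipi2, which recruits ATG16L1, had 64.9, 57 and 65.3 CPM in LPS livers, against 113, 94.7 and 108 CPM in control livers, and fell (-0.75, SE 0.12, adjusted p = 1.289e-04). Wipi1 took 44.8 ± 4.16% of the sum of both per kb in LPS livers and 12.0 ± 0.879% in control livers (exact permutation p = 0.1), while the summed level was 51.1 to 66.1 CPM per kb in LPS livers and 54.4 to 66.2 CPM per kb in control livers. The lipid transfer proteins split in the same manner. Atg2b had 14.5, 18.1 and 18.3 CPM in LPS livers, against 32.9, 29.2 and 31.4 CPM in control livers (-0.87, SE 0.14, adjusted p = 1.186e-04). Atg2a had 80.2, 85.0 and 121 CPM in LPS livers, against 75.4, 64.9 and 68.2 CPM in control livers, with LPS replicate 3 well above the rest (0.46, SE 0.16, adjusted p = 0.0195). That rise stood at 0.26 without LPS replicate 3 (adjusted p = 0.0902) and was also lost without control replicate 2 or 3. Atg9a, the membrane-spanning lipid scramblase, was the most scattered, with 5.54, 8.58 and 14.9 CPM in LPS livers and 20, 14.2 and 17 CPM in control livers. LPS replicate 3 exceeded control replicate 2, and the fall (-0.80, SE 0.28, adjusted p = 0.0223) ended when control replicate 1 or either of LPS replicates 1 and 2 was left out, and was -1.25 without LPS replicate 3. A gene on the same strand overlaps exons of Atg9a.

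**Figure D3:**
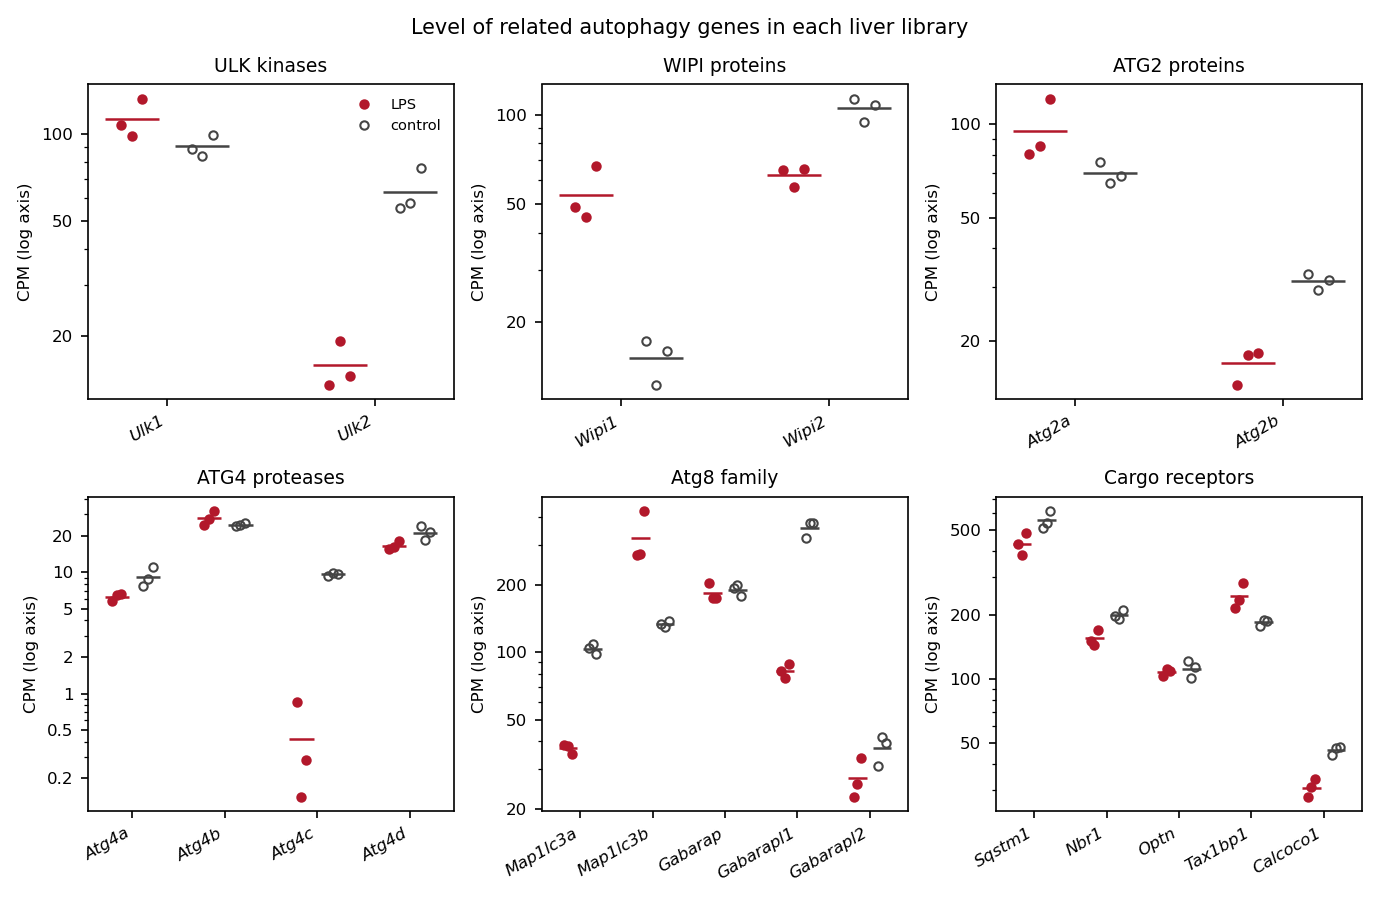
CPM (log axes) of related autophagy genes, with 1 point per library and bars at group means, LPS livers as filled points left of control livers as open points. Map1lc3b, Wipi1 and Atg2a lie higher in LPS livers while Map1lc3a, Gabarapl1, Wipi2 and Atg2b lie lower, and Atg4c lies under 1 CPM in all 3 LPS livers.

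Cargo receptors, which link ubiquitin-tagged cargo to Atg8 proteins, changed by less than 2-fold in each case. Sqstm1, the p62 receptor and the most abundant of the 36 genes per length in both groups, had 430, 382 and 482 CPM in LPS livers and 512, 541 and 614 CPM in control livers. The groups did not overlap and the gene fell by 0.37 on the log2 scale (SE 0.13, adjusted p = 0.0293), but the call ended without LPS replicate 2 (-0.28, adjusted p = 0.138) or control replicate 3 (-0.31, adjusted p = 0.0869). Nbr1, a receptor for aggregates and peroxisomes, had 150, 145 and 170 CPM in LPS livers, against 197, 192 and 210 CPM in control livers (-0.36, SE 0.12, adjusted p = 0.0166), and lost its call without LPS replicate 2 (adjusted p = 0.0762). Calcoco1, a receptor in turnover of the endoplasmic reticulum, had 28.0, 31.0 and 33.8 CPM in LPS livers, against 44.2, 47.5 and 47.8 CPM in control livers. It fell (-0.59, SE 0.12, adjusted p = 9.349e-04), a call that held under all 12 alternative settings. Tax1bp1, which binds ubiquitin and also the NF-kB inhibitor A20, had 216, 236 and 282 CPM in LPS livers, against 178, 189 and 188 CPM in control livers. It was the only one of the 5 receptors to rise (0.40, SE 0.13, adjusted p = 0.0148). Optn, a receptor in removal of mitochondria and bacteria, averaged 108 ± 4.11 CPM in LPS livers and 112 ± 10.4 CPM in control livers, with a difference of -0.05 (95% interval -0.31 to 0.21). The share of Tax1bp1 in the receptor sum per kb was 20.1 ± 1.48% in LPS livers and 13.1 ± 0.695% in control livers, and that of Sqstm1 57.1 ± 2.24% in LPS livers and 63.4 ± 1.79% in control livers (exact permutation p = 0.1 each).

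Lists of other autophagy genes, also chosen with earlier results of these data known, moved in both directions as well. Of 13 other core genes 12 were tested, 5 rose (41.7%) and 4 fell (33.3%), beside 31.3% and 31.0% of all genes tested. Their median log2 fold change was 0.10, beside 0.01 over all genes tested. Wdr45b, the WIPI3 protein, was the sharpest riser (152 ± 14.6 CPM in LPS livers, 29.7 ± 0.974 CPM in control livers, 2.35, SE 0.13), and Atg16l2, a relative of Atg16l1, rose (1.2, SE 0.17), as did the stress-induced Trp53inp1 (1.02, SE 0.18). Trp53inp2, an Atg8-binding protein, fell (49.2 ± 4.6 CPM in LPS livers, 253 ± 18.6 CPM in control livers, -2.36, SE 0.13), as did Rubcn, the Rubicon inhibitor of the UVRAG complex (-1.84, SE 0.23). Of 13 genes for fusion with the lysosome 6 rose (46.2%) and 3 fell (23.1%), with a median of 0.28. When changes were tested against 1.2-fold 3 of them rose, where 27.1% of all genes tested rose. The late endosome GTPase Rab7 (0.81, SE 0.12) and the SNARE Ykt6 (0.60, SE 0.12) rose, and the tethers Vps41 (-1.26, SE 0.13) and Epg5 (-1.15, SE 0.16) fell.

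Receptors for single organelles leaned lower: of 16 genes 15 were tested, 3 rose and 9 fell (median -0.48). Tbk1, the kinase that phosphorylates optineurin and p62, had 92.8 ± 4.05 CPM in LPS livers and 26.9 ± 2.42 CPM in control livers (1.78, SE 0.12), and the endoplasmic reticulum receptor Retreg1 rose (1.47, SE 0.12). Stbd1, a glycogen-binding receptor, had 18.9 ± 0.568 CPM in LPS livers and 101 ± 24.2 CPM in control livers (-2.42, SE 0.17), and the reticulum receptor Tex264 fell (-1.2, SE 0.12). The mitochondrial receptor Fkbp8 fell by 0.41 on the log2 scale (SE 0.13, adjusted p = 0.0143), a call lost without control replicate 1 or LPS replicate 2. Of 18 upstream kinases and transcription factors 6 rose and 6 fell (33.3% each, median -0.15), near the shares of all genes tested. The related lysosomal regulators parted here too: Tfe3 rose (80.3 ± 10.9 CPM in LPS livers, 30.1 ± 0.870 CPM in control livers, 1.41, SE 0.13) and Tfeb fell (2.27 ± 0.389 CPM in LPS livers, 9.46 ± 1.21 CPM in control livers, -2.06, SE 0.26). Of the AMPK subunits, Prkab1 (1.05, SE 0.14) and Prkag1 (0.87, SE 0.19) rose, and Prkag2 (-1.47, SE 0.21) and Prkaa2 (-0.98, SE 0.14) fell. Prkaa1 and Prkab2 did not pass the threshold. Stk11, which encodes the AMPK-activating kinase LKB1, had a difference of -0.20 (SE 0.12, adjusted p = 0.170). Over all 58 genes tested in these 4 lists, 34.5% rose and 37.9% fell, beside 31.3% and 31.0% of all genes tested.

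**Figure D4:**
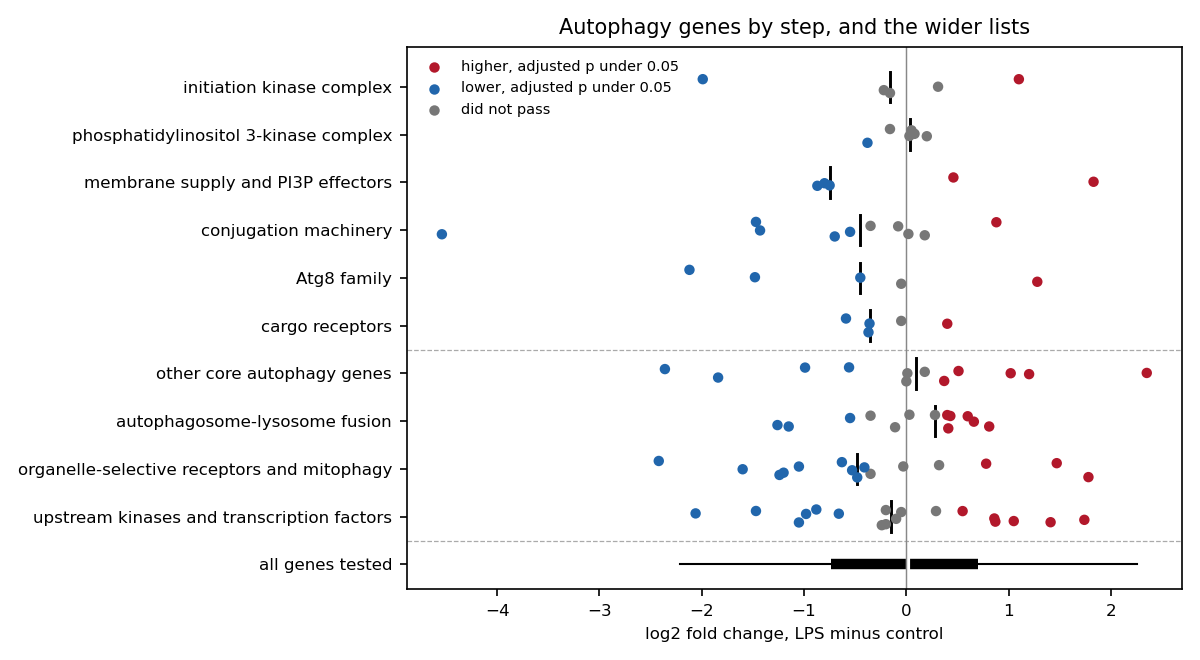
Log2 fold change of each tested gene (points, coloured by call, spread vertically for legibility) for the 6 steps of the machinery above the first dashed line and the 4 wider lists below it, with list medians as vertical bars. The lowest row gives all genes tested, with a thin line from the 5th to the 95th percentile (-2.21 to 2.25) and a thick line over the middle quartiles (-0.73 to 0.70).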

How the data were processed

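The deposited tables hold raw counts per gene, 1 table per library, in fixed-width lines with symbol and Entrez identifier in fields of 8 characters. Per the submitters' processing notes, bcl2fastq 2.0, HISAT2, StringTie, DESeq2, limma and the genome build mm10 were used. For the counting tool, gene annotation, strand setting and treatment of multiply mapping reads: not given in the sources used here. Of the 36 genes, 35 were matched by Entrez identifier and 1 (Atg14, whose identifier is listed in rounded form) by symbol. No 2 libraries of a group agreed within sampling noise (chi-square per degree of freedom 12.4 to 33.8). Nothing in the labels says that they came from separate mice, so p values measure the spread between these samples.

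Counts were compared in R 4.3.3 with edgeR 4.0.16 (TMM scaling, filterByExpr with minimum count 10 and minimum total 15, quasi-likelihood F test, 2-sided), with Benjamini-Hochberg adjustment over 12078 genes and a threshold of 0.05. CPM values use the scaled library sizes, and SE follows from the fold change and its F statistic. Shares within families were compared by exact permutation. DESeq2 1.42.0, other scalings, no filter, a replicate block, a 1.2-fold null and each library left out were tried. The fits were also run on simulated data in which most genes were left unchanged, whereas 62.3% of the genes tested changed in the livers. That run therefore cannot show how the scaling behaves when most genes change. Exon positions, transcript lengths and overlaps came from GENCODE vM21 (GRCm38), promoter windows from RefSeq. Near-identical copies share at least 200 aligned bases at 95% identity or more. All 36 genes are named, and from each wider list the 2 genes with the smallest adjusted p in each direction and the one with the highest mean CPM over all libraries. The remaining AMPK subunits are named as well. The members and lists were chosen with earlier results of these data known.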

Additional observations from a re-analysis of the deposited data

How the results depend on the processing

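Of the 22 changed genes, 13 passed the threshold under all 12 alternative settings: Ulk2, Atg13, Wipi1, Wipi2, Atg2b, Atg3, Atg4c, Atg7, Atg12, Map1lc3a, Map1lc3b, Gabarapl1 and Calcoco1. The other 9 lost the call in at least 1, and their log2 fold changes were at most 0.55 in size except for Atg9a and Atg10. Gabarapl2 lost it without control replicate 2 or 3 or LPS replicate 1 or 2. With a library left out, 5 to 7 of the 36 genes rose and 10 to 15 fell, the 10 (27.8%, beside 28.5% of all genes) without LPS replicate 2. Against a 1.2-fold null 4 rose and 11 fell, and of the fusion genes 3 rose; with DESeq2 6 rose and 14 fell. Atg4d passed by library totals (-0.42, adjusted p = 0.0291) and without control replicate 2 (-0.47). Signs turned for 6 genes that never passed. By library totals Becn1 stood at -0.05, Atg14 at 0.00, Ambra1 at -0.04 and Atg5 at -0.04, and without a filter Becn1 at -0.01 and Atg5 at -0.02. With a library left out Becn1 ran from -0.16 to 0.14, Atg14 from -0.12 to 0.29, Ambra1 from -0.22 to 0.19, Atg5 from -0.07 to 0.08, Gabarap from -0.15 to 0.00 and Optn from -0.15 to 0.00. Without division by length the share of Map1lc3b differed by 32.7 percentage points instead of 24.8, that of Gabarapl1 by -30.9 instead of -26.3, that of Map1lc3a by -6.83 instead of -9.03, that of Nbr1 by -2.18 instead of -0.966 and that of Atg4c by -14.1 instead of -17.1. Sample titles number the repeats 1 to 3 in each group, and whether equal numbers mark paired libraries was not settled. Correlations of deviations were -0.000745, 0.104 and 0.0352 for numbers 1, 2 and 3, beside -0.121 to 0.0741 for different numbers. Of 6 libraries, 3 were closest to their own number. With 3 libraries per group these values cannot decide whether the numbers pair the libraries. With the replicate block 7 genes rose and 16 fell. The low counts of Atg4c and Atg10 in LPS livers limit the precision of their fold changes. The causes of these differences between settings were not tested.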

Other observations

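The promoter windows of the autophagy genes were rich in CG pairs. The median was 19 CG pairs in the 30 windows found, beside 7 over all 27025 gene windows, with a median GC content of 59.6% beside 52.7%. Those 27025 windows were not limited to the genes tested here, and a comparison with the tested genes alone was not made. Genes that rose had a median of 25 CG pairs (5 windows), those that fell 19 (15 windows) and those that did not pass the threshold 15.5 (10 windows). The lowest counts were in Atg4a (3), Atg7 (4), Gabarap (7) and Atg4c (8), of which Atg4a, Atg7 and Atg4c fell. Median variation between libraries of a group was 12.1% (coefficient of variation) in LPS livers and 8.48% in control livers over the 36 genes, beside 14.7% and 13.7% over all genes tested in LPS and control livers. Atg9b and Ccpg1, a relative of Atg9a and a reticulum receptor, were too low to be tested.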
